A study of Mus musculus with 22 samples.

Results

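Solute carriers are the largest group of membrane transport proteins, and mouse liver RNA on these arrays reported on 150 of their genes out of 8251 genes in all. The members were every gene whose symbol in the platform's probe table begins with Slc and a number, without Slc25a20 and Slc40a1, and they fall into 40 numbered families. A probe set with more than 1 symbol was not used, which left out 1 probe set shared by Slc22a28 and Slc22a30. Where a gene had several probe sets, as 29 members did, that with the highest mean over the arrays stood for it; the other 121 had 1. The name does not always mean a transporter. Slc9a3r1 and Slc9a3r2 encode scaffold proteins that regulate a sodium-proton exchanger, and Slc4a1ap encodes a protein named for binding an anion exchanger. Members that are enzymes or subunits of exchangers are named as such where they are described. Members with a mean log2 value of 7 or more over the 22 arrays were set apart as liver-expressed, and 42 qualified (28%, against 28.3% of all genes, 2331 of 8251). The member just inside that limit was Slc6a2 at 7.08 and the one just outside it Slc22a17 at 6.98. The limit is one of array signal and does not by itself show that liver cells make a transcript. Of 3 pancreas markers measured, Cela1 (8.63) and Ctrb1 (7.42) passed it and Cel (6.59) did not. The 5 kidney markers measured had means up to 6.73.

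The livers came from mice of 2 genotypes. Those called IFNg-/- lack the gene for interferon-gamma, and those called SOCS1-/-IFNg-/- lack it too and also lack Socs1, an inhibitor of the signal from the interferon-gamma receptor. Both received the cytokine as a single intraperitoneal injection of 4 µg in 100 µl. Livers were taken 0.5, 1, 2, 4, 12, 16, 24 and 48 h after it, and the controls were an untreated liver and livers 4 and 12 h after 100 µl of phosphate-buffered saline (PBS). Each genotype and condition has 1 array, so 11 arrays per genotype and 3 controls in each, with no replicates. The labels do not give age, sex, the deletion's design or whether a sample was 1 mouse or a pool.

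A solute carrier moves its substrate across a membrane down a gradient, or against one by coupling to sodium, protons or an exchanged ion. In hepatocytes these proteins take up bile acids and amino acids from blood, pass glucose in and out, exchange metabolites across the inner mitochondrial membrane, move nucleotide sugars into the Golgi and distribute zinc, copper, magnesium and iron. Interferon-gamma acts through a cell-surface receptor and the JAK kinases bound to it, and SOCS1 is one of the proteins that shut this signal off.

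The arrays were those of liver: 9 of 12 hepatocyte markers were measured, with means from 8.65 to 13.3. The small number of arrays limits precision, and errors are given as standard errors (SE) of the fit. Socs1 rose to 9.21 at 2 h in IFNg-/- while SOCS1-/-IFNg-/- values kept to 6.57 to 7.02. The arrays of 2 conditions stand apart. The PBS 12 h arrays, although labelled as vehicle, held 7.76 and 8.31 of the interferon-induced chemokine Cxcl9, against 4.16 to 4.46 on the other control arrays, so results are given without them where a call depends on them. The 4 h array of SOCS1-/-IFNg-/- was least like the others (median r over genes 0.972, next lowest 0.984). It had the lowest difference between 3-prime and 5-prime Actb probes (0.326, others 0.473 to 1.56). For Gapdh probes it lay within the others (0.466, others 0.373 to 1.16), and the SOCS1-/-IFNg-/- 12 h array was highest. On the SOCS1-/-IFNg-/- 4 h array the mean of 12 macrophage and Kupffer cell markers was 6.997, against 6.53 to 6.80 on control arrays. Over both genotypes at 4 h, Mpeg1 (1.06), C1qb (0.56) and Cd14 (0.40) were higher than controls and past the threshold used below. Marco (-0.17), Cd5l (-0.12), Msr1 (-0.10) and Csf1r (-0.04) were lower, and the median of the 12 markers was 0.05. The mean of 11 neutrophil markers was 5.50 and 5.58 at 2 h and 5.64 and 5.66 at 4 h, against 5.18 to 5.45. That list held Lcn2 (1.68 at 2 h and 2.90 at 4 h), S100a8 (0.62 and 0.84) and S100a9 (0.55 and 0.54), while the median of its genes was -0.03 at 2 h and -0.02 at 4 h. The mean of 9 hepatocyte markers was 11.56 on both 4 h arrays, against 11.61 to 11.77. Among these Tat was -1.04 and Fgb 0.50 at 4 h, and the other 7 lay between -0.19 and 0.11. What part these values have in the results below was not tested, and fewer cells of a type cannot be told apart from less RNA per cell.

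Sequences upstream of 4 members are shown first for the members with the largest called differences and a promoter in the RefSeq table (Slc38a2, Slc25a47 and Slc2a2) and for Slc41a1, which was called in the most comparisons. Each is the 250 bases before the annotated start in RefSeq GRCm38.p6, written 5′ to 3′ on the gene's strand, with CG dinucleotides in capitals. Slc38a2 lies at chr15:96699729-96699978 on the minus strand, Slc41a1 at chr1:131827762-131828011 on the plus strand, Slc2a2 at chr3:28697653-28697902 on the plus strand and Slc25a47 at chr12:108850879-108851128 on the plus strand.
Slc38a2: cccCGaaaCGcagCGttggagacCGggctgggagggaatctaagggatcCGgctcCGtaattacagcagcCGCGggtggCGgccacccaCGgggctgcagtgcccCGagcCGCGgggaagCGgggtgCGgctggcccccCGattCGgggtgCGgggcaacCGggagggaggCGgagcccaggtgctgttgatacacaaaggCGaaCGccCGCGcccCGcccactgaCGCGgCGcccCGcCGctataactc
Slc41a1: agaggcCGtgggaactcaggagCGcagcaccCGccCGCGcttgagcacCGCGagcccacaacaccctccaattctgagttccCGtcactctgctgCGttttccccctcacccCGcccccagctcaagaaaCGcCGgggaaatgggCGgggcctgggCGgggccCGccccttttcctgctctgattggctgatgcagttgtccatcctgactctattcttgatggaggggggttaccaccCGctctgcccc
Slc2a2: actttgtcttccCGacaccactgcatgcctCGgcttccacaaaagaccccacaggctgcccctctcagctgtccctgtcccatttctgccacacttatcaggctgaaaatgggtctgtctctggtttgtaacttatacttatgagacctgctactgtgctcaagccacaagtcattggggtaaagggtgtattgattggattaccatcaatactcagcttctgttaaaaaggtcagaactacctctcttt
Slc25a47: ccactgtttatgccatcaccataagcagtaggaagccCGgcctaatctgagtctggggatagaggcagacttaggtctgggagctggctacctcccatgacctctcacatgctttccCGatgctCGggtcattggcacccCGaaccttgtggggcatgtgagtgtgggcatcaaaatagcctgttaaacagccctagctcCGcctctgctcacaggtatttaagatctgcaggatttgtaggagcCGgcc
The Slc38a2 window holds 30 CG dinucleotides and 72% G or C, and that of Slc41a1 holds 16 and 64.8%. The glucose transporter Slc2a2 has 2 and 47.2%, and the mitochondrial carrier Slc25a47 has 6 and 54.4%. Over the same 250 bases of all 32851 promoters in the table the median was 6 CG dinucleotides, and over the 174 promoters of 123 members it was 11. The table had promoters for 10 of the 12 members called below, 19 promoters in all.

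The ranges of the liver-expressed carriers over the 22 arrays ran from 0.262 to 1.88 log2 units with a median of 0.662, against 0.564 for all genes with a mean of 7 or more. The range was under 0.5 in 12 of the 42, the narrowest being Slc48a1, a haem transporter (7.23 to 7.50), and over 1 in 11. Slc6a6, the taurine transporter, Slc22a30, an organic ion carrier that has a near relative in Slc22a28, and Slc25a25 and Slc25a47, 2 mitochondrial carriers, had the widest ranges. Of the 108 members with lower means, 6 had a range over 1 and the median range was 0.459. The heatmap of the 42 genes shows each of them on every array relative to controls.

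**Figure D1:**
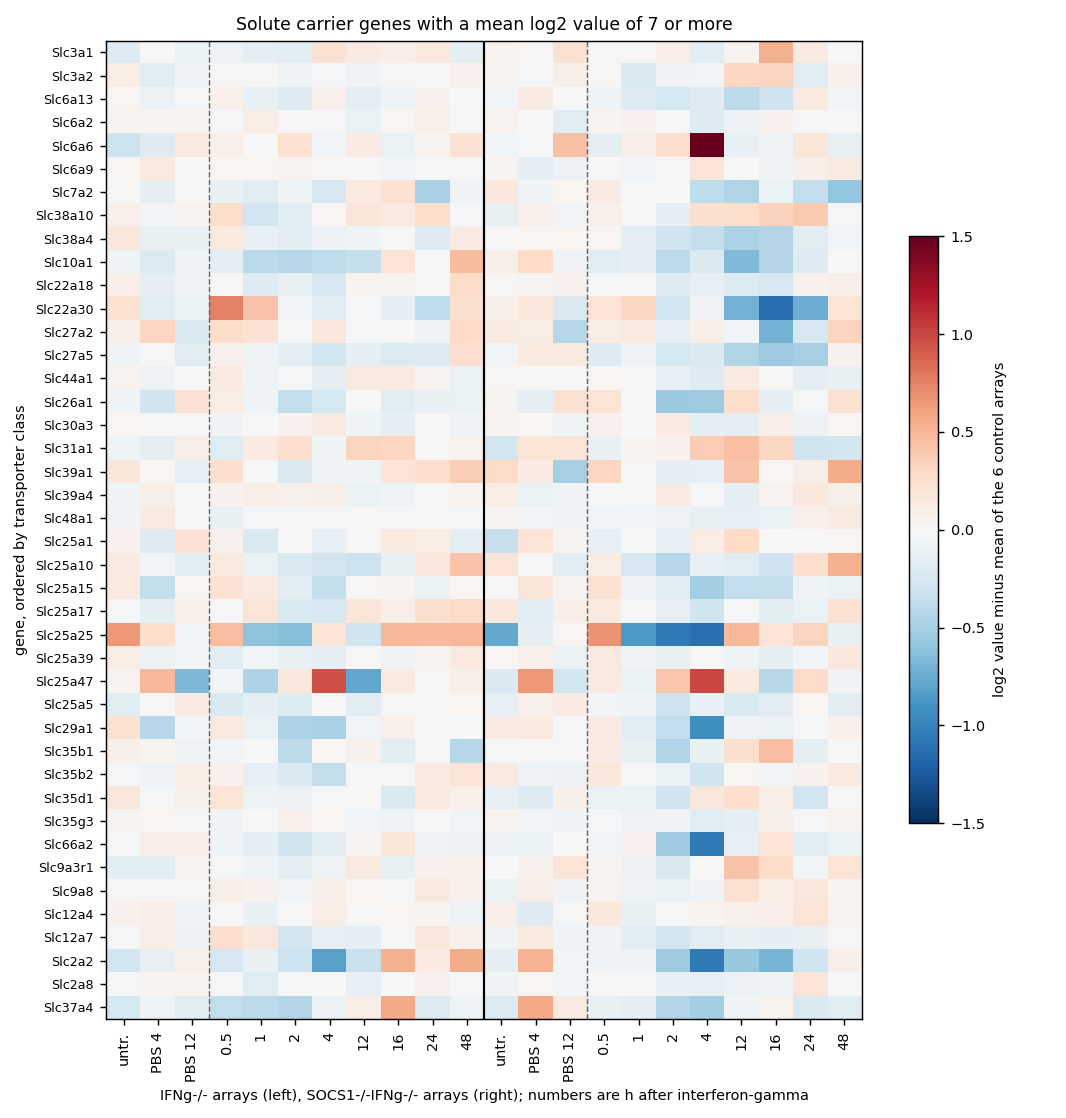
Heatmap of the 42 solute carrier genes with a mean log2 value of 7 or more (rows, by transporter class) on the 22 arrays (columns; IFNg-/- left, SOCS1-/-IFNg-/- right; control arrays left of each dashed line, then h after interferon-gamma). Colour is the log2 value minus the mean of the 6 control arrays, limited at 1.5 in either direction. Slc6a6 and Slc29a1 on the SOCS1-/-IFNg-/- 4 h array and Slc2a2 on both 4 h arrays are among the cells that stand out.

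Calls were made at 2 and 4 h and at no other time. For each time, the values of the 2 genotypes were averaged and set against the average of the 6 control arrays, tested with limma with Benjamini-Hochberg adjustment over all 8251 genes at a threshold of 0.05. At 0.5 h 0 members were called (7 at an unadjusted p under 0.05), with 0% of all genes called, and at 1 h 0 (3 unadjusted), with 0.158% of all genes. At 2 h 4 members of 150 were called (23 unadjusted), with 1.66% of all genes, 3 higher (1.24% of all genes higher) and 1 lower (0.424% lower). At 4 h 10 were called (34 unadjusted), with 5.03% of all genes, 5 higher (3.14%) and 5 lower (1.89%). At 12 h the count was 0 (21 unadjusted; 1.42% of all genes), at 16 h 0 (10; 0.448%), at 24 h 0 (15; 0.17%) and at 48 h 0 (11; 0.0121%). PBS arrays of the same hour are used for 4 and 12 h only. At the other times the effects of interferon-gamma, injection and hour of day cannot be told apart. At 4 h against all 6 controls, those of interferon-gamma and hour of day cannot be told apart either. There the clock gene Nr1d1 was 7.41 and 7.21, with 7.58 and 7.57 on PBS 4 h arrays and 5.68 to 6.48 on the other controls. Of 13 clock genes measured 0 were called at 4 h. What part hour of day has in the results was not tested.

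At 2 h the liver-expressed members' median difference was -0.16, with 34 of 42 below 0, against -0.05 for all genes with a mean of 7 or more; 1 of the 42 was called lower (0.729% of those genes) and 0 higher (1.63%). An unadjusted p under 0.05 at 2 h was reached by 13, all of them lower (31% of 42, against 16.3% of those genes in either direction). At 4 h the median was -0.07, with 31 below 0, against -0.03; 5 of the 42 were called lower (3.13%) and 1 higher (4.55%). An unadjusted p under 0.05 at 4 h was reached by 12, of which 10 were lower and 2 higher (28.6% of 42, against 23.3% of those genes). The other times had medians between -0.07 at 1 h and 0.05 at 48 h. Without the test, both 2 h arrays lay below all 6 controls in 14 liver-expressed members (13.9% of all such genes) and above them in 1 (6.09%). At 4 h these counts were 10 (11.9%) and 1 (6.61%), and at 12 h 8 (6.78%) and 3 (9.01%). Over all 150 members they were 17 below (8.9% of all genes) and 8 above (5.9%) at 2 h, 21 (8.58%) and 7 (5.44%) at 4 h, and 16 (7.51%) and 5 (6.68%) at 12 h.

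**Figure D2:**
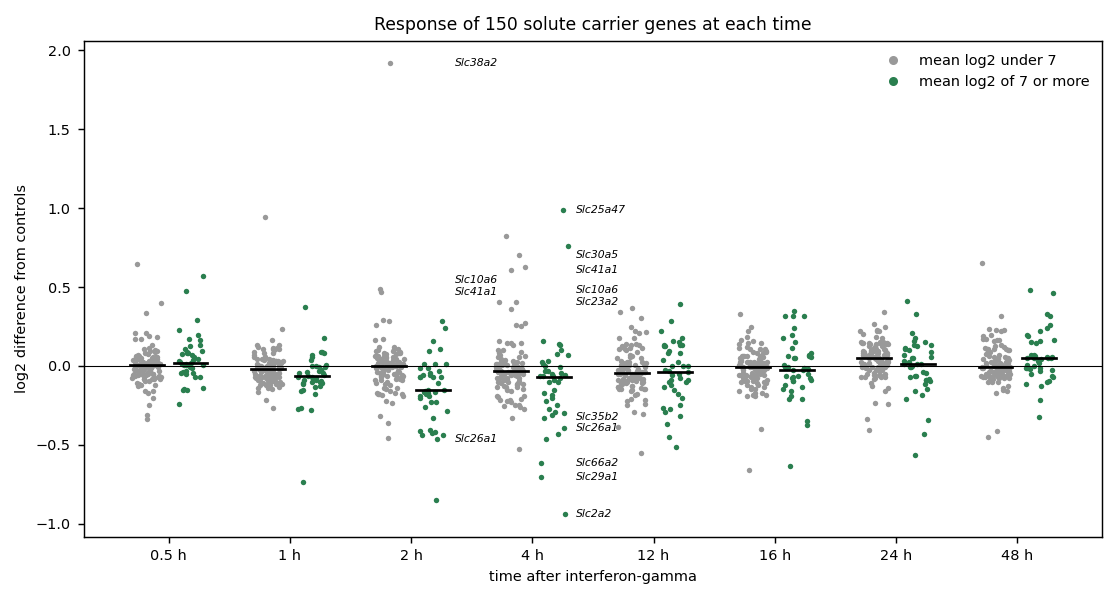
Log2 difference from the 6 control arrays (vertical axis) for each of the 150 solute carrier genes at 8 times after interferon-gamma (horizontal axis), mean of both genotypes; grey points have a mean log2 under 7, green points 7 or more, and black bars are medians. Names mark the genes called by limma; the green median is at -0.16 at 2 h and -0.07 at 4 h, and Slc38a2 at 2 h is the highest point.

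By class, the 3 liver-expressed sugar carriers were all below controls at 2 h, with a median of -0.44. The median was -0.19 for the 5 carriers of nucleosides and nucleotide sugars, with 1 above 0, and -0.17 for the 8 mitochondrial carriers, also with 1 above 0. It was -0.16 for the 3 bile acid and organic ion carriers, -0.13 for the 4 sodium, proton and chloride carriers and -0.07 for the 3 of the fatty acid and choline families, with 0 above 0 in each. Amino acid carriers (9, 3 above 0) had a median of -0.03, and metal ion carriers (5, 3 above 0) one of 0.09. Members were classed by family number alone, not by known substrate or site. The 8 thus include Slc25a17, the 4 include the scaffold gene Slc9a3r1 and the 9 include Slc6a2. These medians describe the lists and were not tested. That of the metal ion carriers is the value of Slc30a3, whose range over the arrays was only 0.28. Slc31a1 was at 0.16, and at 0.21 on a second probe set. Slc39a4 was at 0.10, but at -0.13 on a second probe set with a mean of 8.24.

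Among amino acid carriers, Slc38a2 had the largest called difference of all members. It encodes SNAT2, a sodium-coupled importer of small neutral amino acids that cells raise when amino acids are short or under hyperosmotic stress. In IFNg-/- the log2 value was 7.17 untreated, 6.46 and 6.11 after PBS, then 7.20, 7.52, 8.58 and 6.54 in turn from 0.5 to 4 h, and 5.995 to 6.18 from 12 to 48 h. In SOCS1-/-IFNg-/- it was 6.0001 untreated, 6.11 and 6.66 after PBS, then 6.93, 7.20, 8.09 and 7.94 over the same times, and 5.46 to 6.23 later. Both 2 h arrays stood above every control, and at 4 h the SOCS1-/-IFNg-/- array alone did. Slc38a2 rose by 1.92 ± 0.32 SE at 2 h (adjusted p = 0.00534), a call lost without the IFNg-/- 2 h array (1.72, adjusted p = 0.185) and kept in the 10 fits that left out another pair. The difference was 0.94 ± 0.32 at 1 h (adjusted p = 0.783) and 0.82 ± 0.32 at 4 h (adjusted p = 0.174), neither called. Its mean is 6.65, under the liver limit, and its 3 other probe sets, with means of 2.24, 2.80 and 4.19, gave differences of -0.06, -0.003 and 0.06 at 2 h.

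The liver-expressed amino acid carriers moved less at these times. Slc38a4, a related sodium-coupled importer prominent in hepatocytes, was 10.77 to 11.05 on controls, 10.73 and 10.58 at 2 h and 10.80 and 10.52 at 4 h, and was not called (-0.23 ± 0.11 at 2 h, adjusted p = 0.447). Slc7a2, a cationic amino acid carrier that brings in arginine, had 8.03 to 8.32 on controls and 7.91 and 7.79 at 4 h (-0.31 ± 0.14, adjusted p = 0.269). Slc6a9, a glycine carrier, stayed between 7.75 and 8.07, and Slc6a13, a carrier of GABA and taurine, between 8.91 and 9.44. Slc3a2, the heavy chain that several amino acid exchangers share, stayed between 7.37 and 7.93, and Slc3a1, the heavy chain of a cystine and dibasic amino acid exchanger, between 7.09 and 7.81. The cystine carrier Slc7a11 was between 2.503 and 2.72 on all arrays. Slc6a6 is described with the genotype comparison.

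Slc2a2 fell at 4 h. It encodes GLUT2, the facilitative glucose transporter of hepatocytes. The control values were 8.76 untreated and 8.93 and 9.13 after PBS in IFNg-/-, whereas SOCS1-/-IFNg-/- had 8.90, 9.58 and 9.01. At 2 h it was 8.73 and 8.50 (IFNg-/- first). The 4 h values were 8.23 and 7.99, those of 12 h 8.71 and 8.49, those of 16 h 9.58 and 8.35 and those of 48 h 9.61 and 9.15. Both 4 h arrays were below all controls, as were those of 2 and 12 h. At 16 h the genotypes parted, as they did in the clock gene Nr1d1 (7.30 in IFNg-/- and 5.96 in SOCS1-/-IFNg-/-). For Slc2a2 the difference at 4 h was -0.94 ± 0.23 (adjusted p = 0.0277). It was not called with array weights or a trended robust variance, settings named below. The call was lost without the PBS 12 h arrays (-0.93, adjusted p = 0.0602), without the IFNg-/- 4 h array (-0.98, adjusted p = 0.0659) and without the SOCS1-/-IFNg-/- 4 h array (-0.90, adjusted p = 0.264).

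Slc37a4 carries glucose 6-phosphate into the endoplasmic reticulum, where glucose is released from it. It was 8.74, 8.96 and 8.83 on the IFNg-/- controls and 8.80, 9.58 and 9.14 on those of SOCS1-/-IFNg-/-, and 8.56 and 8.57 at 2 h, 8.92 and 8.50 at 4 h and 9.58 and 9.06 at 16 h. Both 2 h arrays were below all controls, and the difference, -0.44 ± 0.16, was not called (adjusted p = 0.274). The intracellular hexose carrier Slc2a8 stayed between 6.93 and 7.31. Slc2a1, the widely expressed glucose carrier GLUT1, stayed between 5.12 and 5.65.

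Slc25a47, a mitochondrial carrier found mainly in liver, was called higher at 4 h against all controls but was not called against PBS of that hour. In IFNg-/- it was 9.22 untreated, 9.66 at PBS 4 h, 8.51 at PBS 12 h, 10.15 at 4 h, 8.40 at 12 h and 9.13 to 9.34 at 0.5, 2, 16, 24 and 48 h, with 8.72 at 1 h. In SOCS1-/-IFNg-/- it was 8.95, 9.83 and 8.91 on the controls, 10.18 at 4 h and 8.77 to 9.59 at the other times. The 4 h arrays of either treatment were the highest of each genotype. The difference from all 6 controls was 0.99 ± 0.19 (adjusted p = 0.0073), and from the PBS 4 h arrays 0.42 ± 0.23 (adjusted p = 0.519). Without the PBS 12 h arrays, which were low, it was 0.75 (adjusted p = 0.0642), and without the SOCS1-/-IFNg-/- 4 h array 1.05 (adjusted p = 0.0995).

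Other mitochondrial carriers were not called. Slc25a25, an ATP-magnesium and phosphate carrier that is regulated by calcium, was 10.10 untreated in IFNg-/- and 8.68 in SOCS1-/-IFNg-/-, so its controls already spanned much of its range. At 1 h it was 8.84 and 8.58, at 2 h 8.81 and 8.39 and at 4 h 9.64 and 8.33 (-0.85 ± 0.30 at 2 h, adjusted p = 0.236). Slc25a15, the ornithine carrier of the urea cycle, was 9.87 to 10.41 on controls and 9.88 and 9.72 at 4 h (-0.43 ± 0.13, adjusted p = 0.0744). The citrate carrier Slc25a1 stayed between 9.04 and 9.69 and the adenine nucleotide carrier Slc25a5 between 7.71 and 8.15. Slc25a39, which brings glutathione into mitochondria, stayed between 9.67 and 9.99. Slc25a51, the mitochondrial NAD carrier, was 7.38 and 7.11 at 2 h against 6.85 to 7.03 on controls (0.29 ± 0.10, adjusted p = 0.193). The phosphate carrier Slc25a3 stayed between 6.56 and 6.87, and Slc25a4 between 4.95 and 5.61. Slc25a10, the dicarboxylate carrier, was picked after its values were seen. It was 7.85 and 7.64 at 2 h and 8.50 and 8.61 at 48 h, against 7.91 to 8.28 on controls (-0.33 ± 0.08 at 2 h, adjusted p = 0.0561, and 0.48 ± 0.08 at 48 h, adjusted p = 0.123).

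Of 15 members classed as carriers of nucleosides, nucleotide sugars and nucleobases 2 were called lower at 4 h, with 1.89% of all genes called lower. Slc29a1 encodes ENT1, which lets nucleosides such as adenosine cross the plasma membrane. It was 10.01 untreated, 9.35 at PBS 4 h and 9.75 at PBS 12 h in IFNg-/-, whereas SOCS1-/-IFNg-/- had 9.90, 9.92 and 9.77. At 2 h it was 9.32 and 9.42, at 4 h 9.29 and 8.87, and from 12 h on 9.69 to 9.86. The 4 h arrays were the lowest of each genotype, although the IFNg-/- PBS 4 h array came near. The difference at 4 h was -0.70 ± 0.12 (adjusted p = 0.0041). The call was kept in the 10 fits that left out another pair and lost without the SOCS1-/-IFNg-/- 4 h array (-0.47, adjusted p = 0.189). A second probe set with a lower mean (6.36) gave -0.03.

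Slc35b2, which brings the sulphate donor PAPS into the Golgi, changed by -0.33 ± 0.07 at 4 h (adjusted p = 0.0168). Controls ran from 7.04 to 7.27, and the arrays of 2 h (6.90 and 7.02) and 4 h (6.77 and 6.83) were below all of them. The call was lost without the untreated arrays (-0.30, adjusted p = 0.0536), without the IFNg-/- 4 h array (-0.31, adjusted p = 0.066) and without the other 4 h array (-0.35, adjusted p = 0.146). Slc23a2, a sodium-coupled importer of vitamin C, rose by 0.41 ± 0.09 at 4 h (adjusted p = 0.0144), from 6.06 to 6.51 on controls to 6.61 and 6.86. Without the PBS 12 h arrays, its 2 lowest, the difference was 0.31 (adjusted p = 0.1), and without the SOCS1-/-IFNg-/- 4 h array 0.28 (adjusted p = 0.325). Slc35b1, a nucleotide carrier of the endoplasmic reticulum, was 8.83 and 8.78 at 2 h against 9.15 to 9.31 on controls (-0.42 ± 0.13, adjusted p = 0.15). Slc35d1, which carries UDP-sugars, stayed between 8.46 and 9.01, and Slc35a1, the CMP-sialic acid carrier, between 5.14 and 5.77.

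Of 17 metal ion carriers 2 were called higher at 4 h, both genes with low means, with 3.14% of all genes called higher. Slc41a1, a magnesium carrier, was called at 2 h, at 4 h and against PBS of the same hour. Its IFNg-/- values were 4.30 untreated, 4.51 and 4.41 after PBS, 4.99 at 2 h, 4.87 at 4 h and 4.25 to 4.45 later. In SOCS1-/-IFNg-/- they were 4.15, 4.54 and 4.50 on the controls, 4.75 at 2 h, 5.15 at 4 h and 4.42 to 4.596 later. The 4 arrays of 2 and 4 h were above all controls. The rise was 0.47 ± 0.09 at 2 h (adjusted p = 0.0154) and 0.61 ± 0.09 at 4 h (adjusted p = 0.00128). At 2 h the call was lost without the untreated arrays (0.38, adjusted p = 0.0853) and without the IFNg-/- 2 h array (0.32, adjusted p = 0.479). At 4 h it was lost without the SOCS1-/-IFNg-/- array (0.47, adjusted p = 0.0817).

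Slc30a5, a zinc carrier of the early secretory pathway, rose by 0.70 ± 0.13 at 4 h (adjusted p = 0.00486). Its controls lay between 4.47 and 4.96, and the values were 5.01 and 4.999 at 2 h and 5.28 and 5.57 at 4 h. Its second probe set gave 0.75 at 4 h, and without the SOCS1-/-IFNg-/- 4 h array the first gave 0.58 (adjusted p = 0.157). Slc31a1, the copper importer CTR1, was 9.52 and 9.64 at 12 h and 9.51 and 9.50 at 16 h against 8.91 to 9.38 on controls (0.39 ± 0.13 at 12 h, adjusted p = 0.182). Slc39a1, a zinc importer, was 6.66 to 7.45 on controls and 7.53 and 7.71 at 48 h (0.46 ± 0.12, adjusted p = 0.339). Slc11a1, which moves metal ions out of macrophage phagosomes, was 6.34 to 6.68 on controls and 6.64 and 7.02 at 24 h (0.34 ± 0.09, adjusted p = 0.165). Slc11a2, the iron importer DMT1, stayed between 6.32 and 6.69 on its main probe set (mean 6.52), while a second one with a mean of 6.39 gave 0.68 at 4 h. With the mean of all probe sets per gene limma called Slc11a2 at 4 h (0.38 ± 0.08, adjusted p = 0.0119), with 5.36% of all genes. The zinc exporter Slc30a1 stayed between 3.05 and 3.88, Slc30a3 between 8.48 and 8.76 and Slc39a4, an intestinal zinc importer, between 8.39 and 8.69.

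Slc10a6, a sodium-coupled carrier of sulphated steroids, rose at 2 and 4 h. Controls lay between 5.83 and 6.17. The values were 6.40 and 6.67 at 2 h and 6.24 and 6.66 at 4 h, all above the controls, and 5.97 to 6.20 from 12 h on. The rise was 0.49 ± 0.10 at 2 h (adjusted p = 0.0169) and 0.41 ± 0.10 at 4 h (adjusted p = 0.026). Without the PBS 12 h arrays neither was called (0.42, adjusted p = 0.0731, and 0.33, adjusted p = 0.1). At 2 h the call was lost without the IFNg-/- array (0.61, adjusted p = 0.0736) and without the SOCS1-/-IFNg-/- array (0.37, adjusted p = 0.438), and at 4 h without the SOCS1-/-IFNg-/- array (0.21, adjusted p = 0.474).

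Slc10a1 encodes NTCP, the sodium-coupled carrier that takes bile acids from blood into hepatocytes, and it was not called at any time. Controls lay between 10.32 and 10.82. It was 10.10 and 10.14 at 2 h, 10.14 and 10.31 at 4 h and 10.17 and 9.86 at 12 h, below every control each time. At 16 h it was 10.73 and 10.08, and at 48 h 10.99 and 10.53. The differences were -0.41 ± 0.17 at 2 h (adjusted p = 0.349) and -0.51 ± 0.17 at 12 h (adjusted p = 0.182). Slc22a30 was 8.49 to 8.94 on controls, 9.46 and 8.91 at 0.5 h, 8.56 and 7.58 at 16 h and 8.32 and 7.96 at 24 h, and was not called either (-0.64 ± 0.18 at 16 h, adjusted p = 0.23). Slc22a18 stayed between 8.33 and 8.86 and the renal and hepatic phosphate and urate carrier Slc17a1 between 4.06 and 4.92.

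Fatty acid carriers were not called. Slc27a5, the liver enzyme that activates bile acids and very long chain fatty acids, was 10.56 to 10.89 on controls. In IFNg-/- it was 10.60, 10.53 and 10.55 at 12, 16 and 24 h and 10.99 at 48 h, and in SOCS1-/-IFNg-/- 10.29, 10.19, 10.24 and 10.80 (-0.38 ± 0.12 at 16 h, adjusted p = 0.251). Slc27a2, a very long chain acyl-CoA synthetase, was 9.79 and 9.09 at 16 h against 9.36 to 10.11 on controls (-0.35 ± 0.11, adjusted p = 0.263). Slc44a1, a choline carrier, stayed between 7.22 and 7.55.

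Slc26a1, an exchanger of sulphate and oxalate with bicarbonate, fell at 2 and 4 h. In IFNg-/- it was 7.53 untreated, 7.28 at PBS 4 h, 7.79 at PBS 12 h, 7.20 at 2 h and 7.31 at 4 h. In SOCS1-/-IFNg-/- it was 7.62, 7.43 and 7.80 on the controls, 7.02 at 2 h and 7.04 at 4 h. The 2 h arrays lay below every control, and at 4 h the IFNg-/- array did not. The difference was -0.46 ± 0.10 at 2 h (adjusted p = 0.0214) and -0.40 ± 0.10 at 4 h (adjusted p = 0.0276). Without the PBS 12 h arrays, the highest controls, neither was called (-0.35, adjusted p = 0.162, and -0.29, adjusted p = 0.185). Without the untreated arrays adjusted p was 0.0556 and 0.0627. At 2 h the values were -0.60 (adjusted p = 0.0711) without the IFNg-/- array and -0.33 (adjusted p = 0.51) without the other, and at 4 h -0.22 (adjusted p = 0.469) without the SOCS1-/-IFNg-/- array. Slc20a1, a sodium-phosphate carrier, was 5.25 and 4.86 at 2 h and 5.73 and 6.04 at 12 h against 5.15 to 5.71 on controls, not called (-0.46 ± 0.14 at 2 h, adjusted p = 0.133). Slc4a1, the anion exchanger of red blood cells, stayed between 4.81 and 5.31.

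Slc12a7, a potassium and chloride exporter, was 7.16 and 7.17 at 2 h against 7.36 to 7.59 on controls (-0.28 ± 0.08, adjusted p = 0.126). The sodium-proton exchanger Slc9a8 stayed between 7.20 and 7.53. The scaffold gene Slc9a3r1 was 9.64 and 9.94 at 12 h against 9.35 to 9.72 on controls (0.28 ± 0.09, adjusted p = 0.173). The reduced folate carrier Slc19a1 stayed between 6.71 and 7.06, and the lactate carrier Slc16a1 between 2.94 and 3.70.

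**Figure D3:**
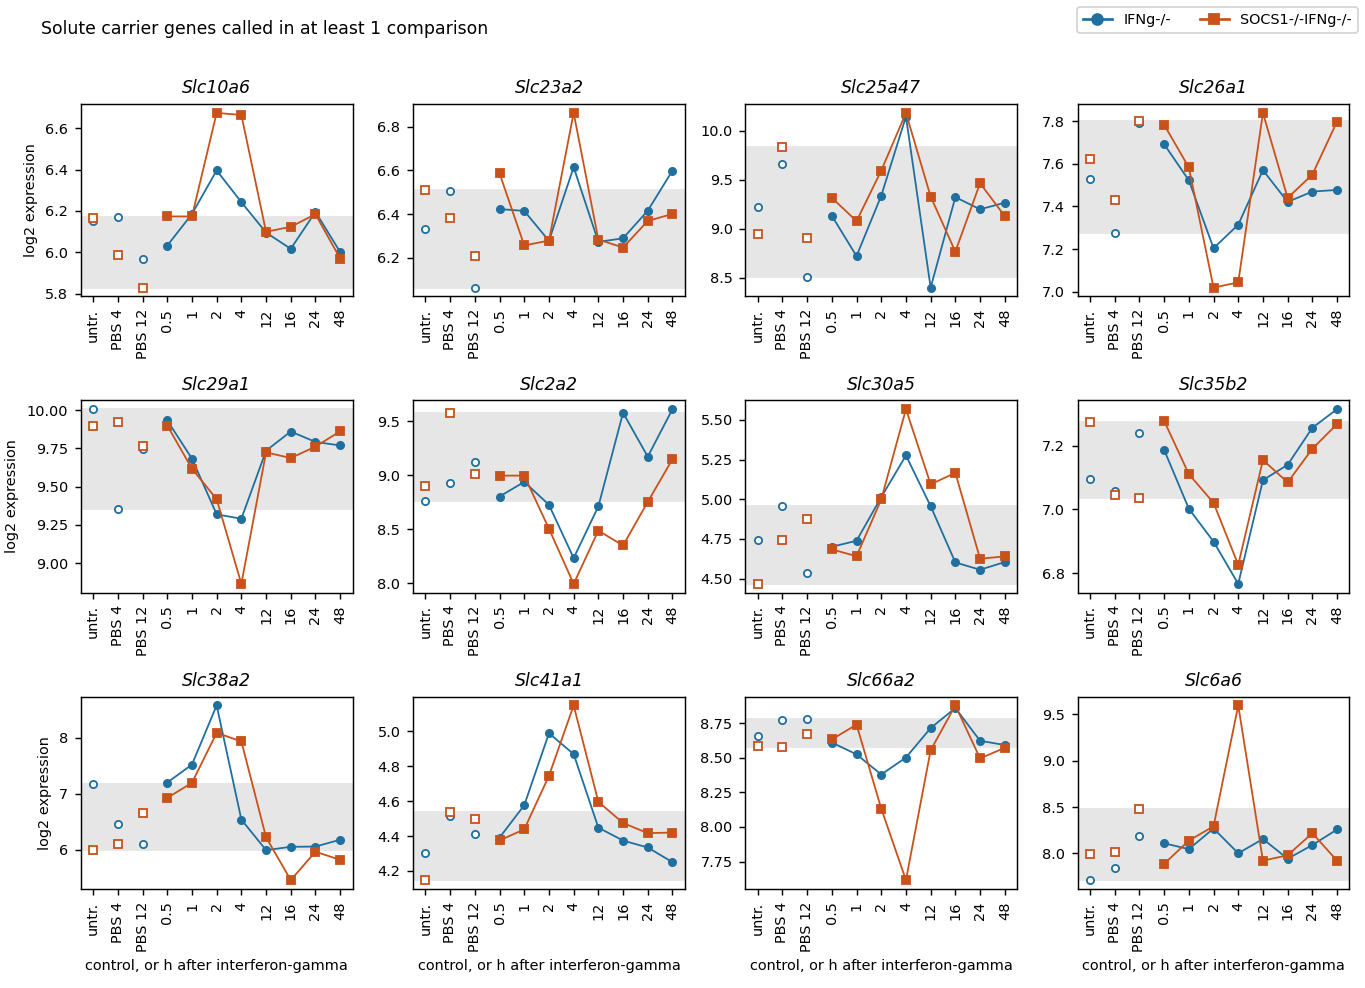
Log2 expression (vertical axes, each with its own scale) of the 12 members called in at least 1 comparison, on the untreated and PBS control arrays (open symbols) and from 0.5 to 48 h after interferon-gamma (filled symbols; lines join the arrays of a genotype). Circles are IFNg-/-, squares SOCS1-/-IFNg-/-, and the grey band is the range of the 6 control arrays; each point is 1 array, and the 2 or 4 h arrays leave the band in most panels.

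Counts of calls moved with single arrays. Without the SOCS1-/-IFNg-/- 4 h array 0 of 150 members were called at 4 h, and 0.727% of all genes. Without the IFNg-/- 4 h array 13 were called, 8 of them among the 10, and 9.85% of all genes. Without the PBS 12 h arrays 4 were called at 4 h, and 3.18% of all genes. With array weights, which give less weight to arrays that depart from the fit, 2 members were called at 4 h, Slc29a1 and Slc41a1, with 1.02% of all genes, and 12 at 2 h, with 5.09%. Calls at 2 h were lost when a 2 h array was left out, as given for each gene above. Without the 4 h pair 7 members were called at 2 h, the 4 among them, with 3.48% of all genes.

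Against the PBS arrays of the same hour, which match the 4 h arrays in injection and time, 1 member was called (17 at an unadjusted p under 0.05), with 1.36% of all genes. This was Slc41a1, 0.49 ± 0.11 higher (adjusted p = 0.0454). The rise was 0.36 in IFNg-/- and 0.61 in SOCS1-/-IFNg-/-. In 8 of 9 fits that left out another pair the call was lost, as it was without the SOCS1-/-IFNg-/- 4 h array (0.35). Slc2a2 had the largest difference, -1.14 ± 0.28 (adjusted p = 0.0613), which was -0.70 in IFNg-/- and -1.58 in SOCS1-/-IFNg-/-. The values were -0.56 ± 0.15 for Slc29a1 (adjusted p = 0.0974), 0.57 ± 0.16 for Slc30a5 (adjusted p = 0.1) and -0.62 ± 0.17 for Slc66a2 (adjusted p = 0.108). For Slc29a1 the difference was -0.06 in IFNg-/- and -1.06 in SOCS1-/-IFNg-/-. Slc26a1 differed by -0.18 ± 0.12 (adjusted p = 0.645).

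At 12 h against PBS of 12 h limma called 0 members (11 unadjusted), with 0.109% of all genes, and the interferon-induced transcripts on those PBS arrays are in that comparison. PBS against untreated gave 0 members (13 unadjusted), with 0.0242% of all genes. Pooled over 0.5 to 4 h, the early response called 0 (12 unadjusted; 0.0121% of all genes), and over 12 to 48 h the late response called 0 (7 unadjusted; 0% of all genes). Slc38a2 had the smallest early p (1.08 ± 0.25, adjusted p = 0.177) and was called without the 0.5 h pair (1.23, adjusted p = 0.0324). Slc27a5 was called late without the 48 h pair (-0.34, adjusted p = 0.0126, against -0.21 ± 0.09 and adjusted p = 0.71 with it).

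Loss of SOCS1 went with no called difference over all pairs of arrays. Within the 11 pairs, each of 1 treatment and time, limma called 0 members (15 unadjusted), with 0.218% of all genes. Slc22a5, the carnitine importer OCTN2, had the smallest p and was picked for that (-0.18 ± 0.05 in SOCS1-/-IFNg-/- against IFNg-/-, adjusted p = 0.197). The genotype difference early minus that in controls gave 0 (4 unadjusted; 0% of all genes), and late minus controls 0 (13 unadjusted; 0%). In the late comparison 9 liver-expressed members had an unadjusted p under 0.05 (21.4% of 42), near the 19.1% of all genes with a mean of 7 or more. The smallest p was that of Slc10a1 (-0.63 ± 0.13, adjusted p = 0.134). Its value in SOCS1-/-IFNg-/- minus IFNg-/- was 0.16, 0.51 and 0.01 in the control pairs and -0.31, -0.64, -0.21 and -0.46 from 12 to 48 h, so higher control values of SOCS1-/-IFNg-/- are part of the difference. For Slc2a2 (-0.81 ± 0.23, adjusted p = 0.228) the control pairs were 0.14, 0.64 and -0.12 and the late pairs -0.22, -1.23, -0.42 and -0.46. For Slc27a5 (-0.46 ± 0.10, adjusted p = 0.15) they were 0.03, 0.15 and 0.32, and -0.32, -0.34, -0.30 and -0.19. Slc16a7, a monocarboxylate carrier picked after its values were seen, had -0.84 ± 0.17 (adjusted p = 0.123) and was called without the untreated pair (-1.07, adjusted p = 0.0364).

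The 4 h pair, 1 array of each genotype, was set against the other 10 pairs because earlier results of these data showed it to stand apart. The values and p below therefore describe that pair and are no test of the genotypes at 4 h. Of 150 members 3 (2%) were past the threshold (30 unadjusted), below the 3.36% of all genes, and of the 42 liver-expressed members 2, with 3.65% of such genes. The macrophage markers and Actb probe values of the SOCS1-/-IFNg-/- 4 h array given above move with this pair.

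Slc6a6, the taurine transporter, was higher on 1 array. In IFNg-/- it was 7.71 untreated, 7.84 and 8.18 after PBS and 7.94 to 8.27 at the 8 times, 8.00 of it at 4 h. In SOCS1-/-IFNg-/- it was 8.00, 8.02 and 8.48 on the controls, 9.596 at 4 h and 7.89 to 8.29 at the other times. The 4 h difference between genotypes was 1.60, against -0.34 to 0.29 in the other pairs, an excess of 1.57 ± 0.20 (adjusted p = 0.000468). Its second probe set, with a mean of 5.81, gave 0.90.

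Slc66a2, a membrane protein of the PQ-loop family, was lower on the same array. It was 8.58 to 8.78 on the 6 controls. In IFNg-/- it was 8.38 at 2 h and 8.50 at 4 h, and in SOCS1-/-IFNg-/- 8.13 at 2 h and 7.62 at 4 h, while all other arrays lay between 8.49 and 8.88. The 4 h genotype difference was -0.88, against -0.25 to 0.21 in the other pairs, an excess of -0.82 ± 0.14 (adjusted p = 0.00433). Over both genotypes the 4 h response was -0.62 ± 0.14 (adjusted p = 0.0194), lost without the PBS 12 h arrays (-0.59, adjusted p = 0.0548) and without the SOCS1-/-IFNg-/- 4 h array (-0.21, adjusted p = 0.471).

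Slc38a2 was 7.94 in SOCS1-/-IFNg-/- and 6.54 in IFNg-/- at 4 h, a difference of 1.40. The other pairs ran from -1.17 in the untreated livers to 0.55 at PBS 12 h. The excess was 1.68 ± 0.40 (adjusted p = 0.0301), and with the mean of all 4 probe sets it was 0.21 (adjusted p = 0.496). At 2 h, where both arrays were high, the genotype difference was -0.49.

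**Figure D4:**
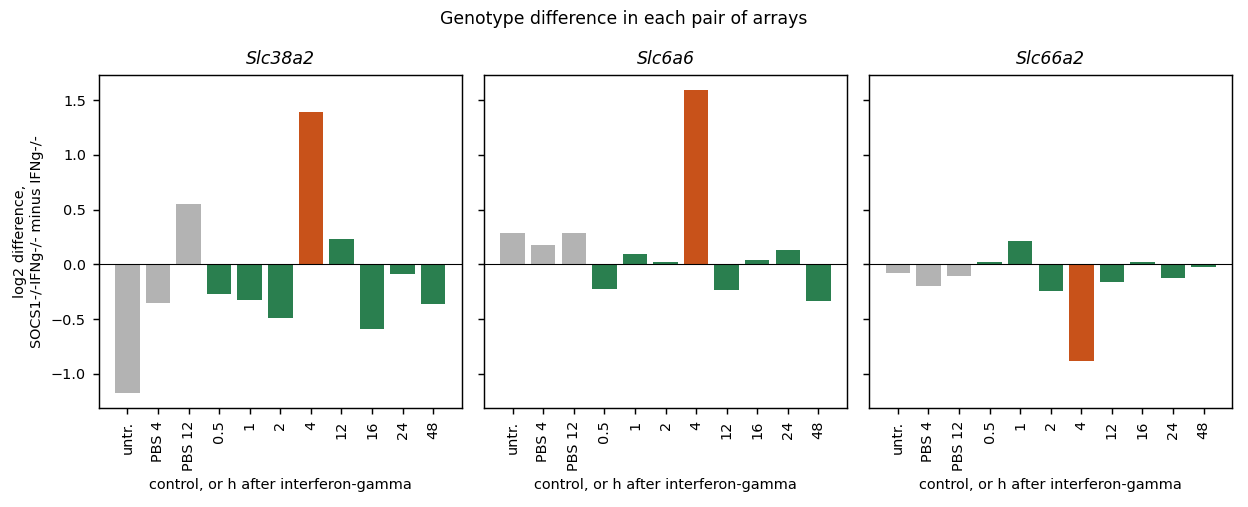
Log2 value of SOCS1-/-IFNg-/- minus IFNg-/- (vertical axis) in each of the 11 pairs of arrays (horizontal axis; grey, control pairs; green, interferon-gamma pairs; orange, the 4 h pair) for Slc38a2, Slc6a6 and Slc66a2. Each bar is 1 pair without replicates; the 4 h bars are 1.40, 1.60 and -0.88.

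Membrane transporters outside the solute carrier families gave a measure from the same arrays. Of 58 listed, 34 were measured; 1 rose at 2 h and 0 fell (1.66% of all genes called), 2 rose and 1 fell at 4 h (5.03%), 2 rose and 1 fell at 12 h (1.42%), and 1 rose at 48 h (0.0121%). Tap1, which moves peptides into the endoplasmic reticulum for MHC class I, rose by 1.76 ± 0.23 at 2 h (adjusted p = 0.000716), 2.05 ± 0.23 at 4 h (adjusted p = 0.000218) and 1.11 ± 0.23 at 12 h (adjusted p = 0.0279). At 4 h it was 7.87 in IFNg-/- and 9.32 in SOCS1-/-IFNg-/-. Its partner Tap2 rose at 12 h by 0.65 ± 0.14 (adjusted p = 0.0315). Abca1, which exports cholesterol, rose at 4 h by 0.59 ± 0.15 (adjusted p = 0.0383), and the water channel Aqp4 changed by -0.43 ± 0.09 at 4 h (adjusted p = 0.0156) and by -0.64 against PBS of that hour (adjusted p = 0.0121). Abcd3, which brings fatty acids into peroxisomes, changed by -0.64 ± 0.13 at 12 h (adjusted p = 0.0182). Abcc3, an exporter of conjugated organic anions, rose by 0.80 ± 0.11 at 48 h (adjusted p = 0.0264). These transporters were not refitted without single arrays.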

How the data were processed

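Liver RNA was hybridised to 22 single-colour Affymetrix arrays, 1 per genotype and condition. The deposited values are log2 expression values made by the authors, from 1.73 to 13.5, with array medians of 5.64 to 5.71. The affy package is named in the submitters' processing notes, and the normalization is not given in the sources used here. Probe sets with 1 symbol were kept, 1 per gene, which gave 8251 genes.

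Differences were tested on the log2 scale with limma 3.58.1 in R 4.3.3, with Benjamini-Hochberg adjustment over all genes at 0.05. With 1 array per condition, each time was fitted as condition plus genotype over all arrays (10 residual degrees of freedom), so both genotypes serve as the 2 samples of a time. Early and late responses used 6 groups of genotype and phase (16 degrees of freedom), and genotype used the 11 within-pair differences (8, and 9 for the 4 h pair). The labels do not say that arrays came from separate animals, so each p-value reflects the spread among these arrays and nothing wider. The fits were tested on simulated data. Members and lists were chosen with earlier results of these data known. Genes named were those called, those with the highest means of each class, the 10 widest ranges and a fixed list, and Slc25a10, Slc16a7, Slc22a5 and Slc48a1 were added after their values were seen. Alternatives left out control pairs, each pair and single 2 and 4 h arrays, or used array weights, a trended robust variance, only genes with a mean of 7 or more, the mean of all probe sets or quantile normalization.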

Additional observations from a re-analysis of the deposited data

Results flagged for a closer look

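In 14 of 216 groups of 4 arrays (a named gene in 1 genotype, early or late), 1 array lay far from the rest by Dixon's criterion. Among groups of 4 replicates chance would give about 1 in 20, or 10.8, but the 4 arrays here are 4 different times. Some genes were also named for calls or wide ranges in these data, so the 2 counts cannot be compared. In IFNg-/- the arrays that lay apart were Slc10a1 at 0.5 h (10.3886), Slc2a8 at 1 h (6.92522), Slc25a25 (9.1524), Slc25a47 (8.39894), Slc25a5 (7.85284) and Slc30a5 (4.95652) at 12 h, Slc25a15 at 24 h (10.1289), and Slc27a5 (10.9929) and Slc3a1 (7.1369) at 48 h. In SOCS1-/-IFNg-/- they were Slc25a25 at 0.5 h (10.1208), Slc4a1 at 2 h (5.15056), Slc11a2 (6.31865) and Slc25a1 (9.68829) at 12 h and Slc27a5 at 48 h (10.8019).

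The 4 h genotype difference minus that of the other 10 pairs was 1.683 in Slc38a2, -0.8167 in Slc66a2 and 1.571 in Slc6a6, past the threshold in limma. This is 1 pair of arrays singled out after it was seen to stand apart, with 3.36% of all genes past the threshold, so it describes that pair.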

How the results depend on the processing

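Of 629 values under other settings, 528 were the same, 65 lost the threshold, 36 moved and 0 reversed. These values mix 18 calls of single members with counts of members. For a call, the same means that direction and side of the threshold were kept. For a count it means an equal or similar number, which includes counts that stayed at 0. All 65 losses were among the calls, and all 36 moves among the counts. The count of members called at 2 h (4) was 2 without the untreated arrays, 12 with array weights and 2 among genes with a mean of 7 or more, and 0 to 7 with an array or pair left out. At 4 h (10) it was 4 without the PBS 12 h arrays, 2 with array weights, 6 among genes with a mean of 7 or more and 0 to 13 with an array or pair left out. Against PBS 4 h (1) it was 0 without the untreated arrays, 0 without the PBS 12 h arrays, 0 with array weights, 0 among genes with a mean of 7 or more, 0 after quantile normalization and 0 to 9 with an array or pair left out. The early and the late response gave 0 to 1 with a pair left out. The late genotype difference gave 1 without the untreated arrays (Slc16a7), 2 with array weights (Slc16a7 and Slc27a5) and 0 to 1 with a pair left out. The 4 h genotype difference (3) gave 5 with array weights and 3 to 5 with a pair left out. A liver limit of 6 or 8 in place of 7 gave 79 or 26 members. Single 2 and 4 h arrays were left out as an alternative chosen after seeing the data. The causes of the changes in calls and counts were not tested. The labels carry no replicate numbers, so no replicate block was fitted, and genotypes were compared within pairs of 1 treatment and time. With 1 array per genotype and condition, a change in a single genotype and time has no replicate check.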
